A study of Mus musculus with 6 samples.

Results

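Tcf7, Lef1, Satb1, Id3, Bach2, Eomes, Tbx21, Id2, Tox and Prdm1 are 10 transcription regulators that mark memory, effector and exhausted states of T cells. They were taken as a list of names, and all 10 were found among the 32285 genes of the count matrices. The cells are T cells from CT2A tumors, a mouse glioma line grown in the brain of C57BL/6J mice. The mice were labelled WT and 6-8 weeks of age. The early group is day 13 (16 tumors, with 4 mice pooled for a replicate) and the late group is day 19 (4 tumors). Cells were sorted as CD3+ with CD4 or CD8 and captured with 10x Genomics 5' chemistry. From each day's capture, libraries of transcripts, of antibody tags and of T cell receptors (TCR) were made. The comparison of the days asks how these T cells differ between an earlier and a later tumor.

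TCF-1, encoded by Tcf7, and LEF1, encoded by Lef1, are related factors that keep T cells in naive, memory or stem-like states. In chronic infection and tumors, CD8 T cells that keep TCF-1 can renew and give rise to cells that carry PD-1 (Pdcd1) and TIM-3 (Havcr2), the terminally exhausted state. TOX drives the exhaustion program, BLIMP-1 (Prdm1) and ID2 accompany effector differentiation, and the T-box factors T-bet (Tbx21) and EOMES set effector and memory fates. BACH2 and ID3 restrain effector differentiation, and SATB1 organizes chromatin in T cells and limits Pdcd1 transcription.

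A barcode with an assembled TCR contig was kept as a cell if it had at least 5000 gene UMIs (unique molecular identifiers, each marking 1 captured molecule), at most 10% mitochondrial UMIs and at most 3 UMIs of the macrophage genes C1qa, Lyz2 and Csf1r together. This left 3775 cells at day 13 and 2159 at day 19, with medians of 7126 and 8792 UMIs. A CD8 cell was one with Cd8a or Cd8b1 but without Cd4 UMIs (2646 and 1436 cells), and a CD4 cell one with Cd4 but without Cd8a and Cd8b1 UMIs (499 and 377 cells). Barcodes with both (182 and 114) or neither (448 and 232) were left out of the classes. The defining T cell genes Cd3d, Cd3e and Cd3g summed to 3010 and 3118 counts per 1000000 gene UMIs (CPM) in CD8 cells and to 2360 and 2806 in CD4 cells. Macrophage and monocyte genes (6 of 6 detected) summed to 111 and 97.7 CPM in CD8 cells, and to 387 and 251 CPM in CD4 cells. Of 4 tumor and glia genes none was detected in CD4 cells, and their sum was at most 0.414 CPM in CD8 cells. With 13 barcodes shared by the days, and 1 capture per day, day and capture cannot be told apart. There is no test and no p-value here. Ratios carry exact 95% intervals for 2 Poisson counts and shares exact (Clopper-Pearson) 95% intervals, both of which cover counting error only.

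The stretch before the gene start is shown for 4 members because the matrices place them on opposite sides of the main comparison: Lef1, Id3 and Satb1 were lower and Id2 was higher in Pdcd1-positive than in Pdcd1-negative CD8 cells (below). Each is the 250 bases before the outermost RefSeq start, from the GRCm38.p6 table, and capitals mark the E-box letters CANNTG, the core bound by the E proteins that ID2 and ID3 sequester.
Lef1, chr3:131110047-131110296, strand +: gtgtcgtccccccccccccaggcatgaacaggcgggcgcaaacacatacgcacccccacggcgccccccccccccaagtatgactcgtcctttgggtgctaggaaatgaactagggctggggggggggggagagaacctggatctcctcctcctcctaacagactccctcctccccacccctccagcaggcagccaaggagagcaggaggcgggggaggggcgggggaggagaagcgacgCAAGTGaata
Id3, chr4:136143572-136143821, strand +: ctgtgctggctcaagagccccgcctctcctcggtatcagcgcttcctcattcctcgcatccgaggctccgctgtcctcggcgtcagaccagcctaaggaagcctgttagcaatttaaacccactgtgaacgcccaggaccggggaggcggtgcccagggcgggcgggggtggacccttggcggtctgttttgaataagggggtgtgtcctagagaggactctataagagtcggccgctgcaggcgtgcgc
Satb1, chr17:51833291-51833540, strand -: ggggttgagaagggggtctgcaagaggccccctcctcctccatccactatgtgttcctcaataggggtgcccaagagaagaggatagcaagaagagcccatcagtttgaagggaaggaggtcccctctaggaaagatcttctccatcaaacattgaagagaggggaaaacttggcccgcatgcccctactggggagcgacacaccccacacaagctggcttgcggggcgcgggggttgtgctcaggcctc
Id2, chr12:25096093-25096342, strand -: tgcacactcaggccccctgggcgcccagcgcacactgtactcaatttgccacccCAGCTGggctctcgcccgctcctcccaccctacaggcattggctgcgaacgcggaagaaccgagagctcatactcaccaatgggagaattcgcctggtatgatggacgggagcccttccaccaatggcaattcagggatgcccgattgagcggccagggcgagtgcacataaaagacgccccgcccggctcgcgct
The Lef1 and Id2 windows each held 1 E-box match and the Id3 and Satb1 windows held 0. Of all 32851 windows in the table, 66.2% held a match. The TCF/LEF letters CTTTGA or CTTTGT, searched on both strands, were in none of these 4 windows. They were found at 4 of the 17 listed starts of 9 members, in 3 genes (Lef1, Bach2 and Satb1), against 27.6% of all windows. These letters are a description and do not show binding.

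Tcf7 (ENSMUSG00000000782) lies at chr11:52246527-52283383, Tox (ENSMUSG00000041272) at chr4:6686353-6991557 and Eomes (ENSMUSG00000032446) at chr9:118478186-118486132 of GRCm38.p6. In CD8 cells, Tcf7 stood at 224 CPM (95% interval of the count 218 to 230) at day 13 and at 139 CPM (133 to 145) at day 19. The TCR contigs of each day came in 4 tables, called contig subsets here, which hold separate barcodes but are not labelled as replicates. They gave 207 to 244 CPM at day 13 and 128 to 158 CPM at day 19, with no overlap. Lef1 stood at 94.4 and 65.9 CPM, and its subsets (79.6 to 119 against 59.0 to 75.1 CPM) did not overlap either. Subsets of the days overlapped for the other 8 members in CD8 cells. The share of all genes without such overlap is not given, so how unusual it is between the captures is not known. Satb1 stood at 130 and 119 CPM, Id3 at 49.0 and 45.3, Bach2 at 31.9 and 25.8, and Eomes at 51.5 and 36.5. Tbx21 stood at 76.1 and 75.8 CPM, Id2 at 189 and 247, Tox at 56.5 and 72.9, and Prdm1 at 14.9 and 11.6. Thus Id2 and Tox had the higher sum at day 19, Tbx21 was level, and the rest had the lower sum.

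In CD4 cells, Tcf7 stood at 283 and 150 CPM, Lef1 at 71.5 and 51.0, Satb1 at 63.0 and 65.6, and Id3 at 28.6 and 20.7. Bach2 stood at 33.5 and 25.2 CPM, Tbx21 at 54.1 and 50.2, Id2 at 159 and 185, Tox at 54.5 and 75.6, and Prdm1 at 24.6 and 38.0. Eomes was barely detected in CD4 cells, at 3.35 and 4.78 CPM. Subsets of the days did not overlap in CD4 cells for Tcf7 (257 to 325 against 126 to 236 CPM) and Bach2 (29.6 to 36.4 against 8.84 to 28.9 CPM). The Bach2 ranges rest on few UMIs. Its 8.84 CPM was 1 UMI in 12 cells, and the nearest values, 28.9 and 29.6 CPM, were 65 and 41 UMIs.

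**Figure D1:**
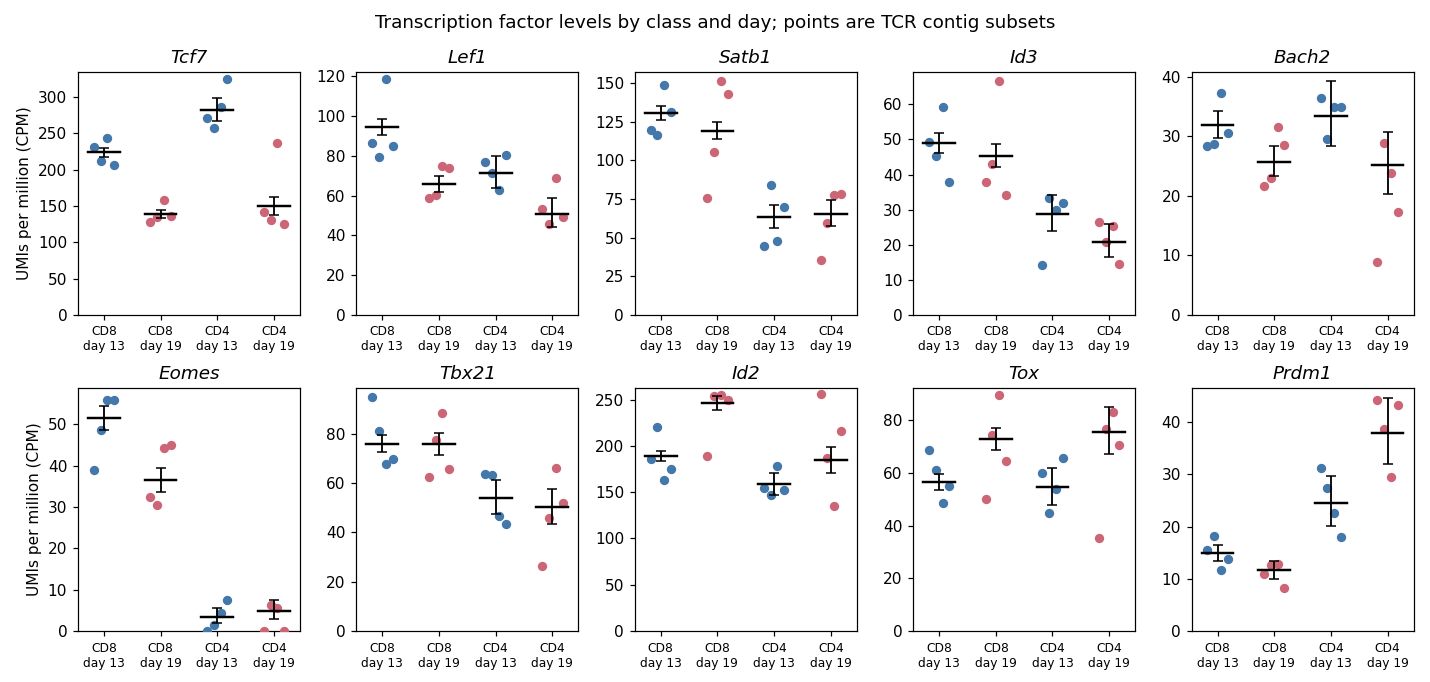
Level of each gene in CPM (vertical axis) in CD8 and CD4 cells of each day; points are the 4 contig subsets of a day, the black line is the pooled sum and its bar the 95% Poisson interval. Tcf7 points of day 13 lie above those of day 19 in both classes (206.8 to 244.2 against 127.7 to 158.0 CPM in CD8 cells), while Eomes is near 0 in CD4 cells.

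Shares of cells with a UMI were taken after thinning every cell to 5000 UMIs. In CD8 cells Tcf7 was detected in 56.2% of cells (54.3 to 58.1) at day 13 and 39.1% (36.5 to 41.6) at day 19, against 64.3% and 47.4% before thinning. Tox was detected in 19.8% (18.3 to 21.3) and 24.2% (22.0 to 26.5) of CD8 cells. Barcodes with at least 20 UMIs of the macrophage genes gave a background for factors that macrophages lack (536 and 189 barcodes, medians of 8850 and 9390 UMIs). There Tcf7 was in 1.68% and 1.06%, Lef1 in 0.560% and 1.06%, Satb1 in 2.80% and 2.12%, Eomes in 0.746% and 0.529%, and Tbx21 in 1.12% and 0.529%. Tox was in 0.373% at day 13 and in 0 of 189 barcodes at day 19, which allows up to 1.93%. Id2 (38.2% and 41.3%), Id3 (22.6% and 12.7%), Prdm1 (18.5% and 16.4%) and Bach2 (7.09% and 7.41%) were detected in many macrophage-rich barcodes. Background and transcripts of the macrophages themselves cannot be told apart there, so the shares of these genes are not a floor. Prdm1 was in 6.01% and 5.50% of CD8 cells, a lower share than in these barcodes. Id3 was in 15.6% and 15.2% of CD8 cells, a lower share than in these barcodes at day 13. Its 49.0 and 45.3 CPM were below the 97.6 and 58.1 CPM of the macrophage-rich barcodes. Id2 stood at 157 and 152 CPM and Bach2 at 16.8 and 15.3 CPM in those barcodes. The part of macrophage transcripts in the Id2, Id3, Prdm1 and Bach2 values, co-detection included, was not tested.

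Between the days, a gene was called past the fold if its CPM differed by at least 1.5-fold and both sums together held at least 100 UMIs. In CD8 cells, 1 of 10 members was past the fold and lower at day 19, Tcf7, against 7.33% of the 10047 genes tested that were lower, and 0 members were higher, against 5.26% (12.6% of genes in either direction). The count of members is thus near the share over all genes. The Tcf7 log2 ratio of day 19 to day 13 was -0.69 (-0.76 to -0.62). Lef1 (-0.52) and Eomes (-0.50) were lower by less than the fold, and Id2 (0.39) and Tox (0.37) higher by less than the fold. The median over the members was -0.22, and over all genes tested -0.04. With a minimum of 8000 UMIs per cell the Tcf7 ratio was -0.52, short of the fold. Without contig subset 2 of day 13, or subset 4 of day 19, 2 members were past the fold. NK cell genes (Ncr1, Klrb1c and Klre1) summed to 58.4 CPM at day 13 and 134 CPM at day 19 in CD8 cells, and their part in the day ratios was not tested.

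The day difference was not even over CD8 cells. The share of Pdcd1-positive cells was 34.1% at day 13 and 43.2% at day 19, and the share positive for Pdcd1 and Havcr2 was 5.63% and 14.2%. Weighting day 19 by the class make-up of day 13 gave a Tcf7 log2 ratio of -0.52. Tcf7 went from 290 to 216 CPM in Pdcd1-negative cells, from 150 to 81.5 in cells positive for Pdcd1 alone, and from 23.9 to 5.79 in cells positive for both. Eomes was nearly level in Pdcd1-negative cells (57.9 and 54.0 CPM) but went from 41.9 to 17.6 CPM in Pdcd1-positive cells, a log2 ratio of -1.25. Lef1 had log2 ratios of -0.20 in Pdcd1-negative and -1.30 in Pdcd1-positive cells. The difference between these ratios was not tested. Tox and Id2 had log2 ratios above 0 but under the fold in each of the 3 classes, from 0.20 to 0.27 for Tox and from 0.23 to 0.44 for Id2. The interval of Tox in cells positive for both (-0.07 to 0.47) included 0.

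Of the other regulators of T cell state on a list of 40, 38 were tested between the days in CD8 cells. Irf8 alone was higher and 7 were lower, Bcl6 (-1.24), Rora, Klf3 (-0.93), Klf2, Runx1, Batf3 (-1.64) and Stat4. Of 8 genes of naive or stem-like T cells, 5 were lower (Slamf6, Il7r, S1pr1, Cxcr5 and Cd28). Of 12 genes of exhausted or effector cells, 4 were higher (Lag3, Cd244a, Entpd1 and Prf1) and 2 lower (Gzmk and Klrg1). Over all genes tested between the days in CD8 cells, 5.26% were higher and 7.33% lower.

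In CD4 cells, 2 of 9 members tested were past the fold between the days. Tcf7 was lower at day 19 (log2 ratio -0.92, -1.06 to -0.77), against 7.12% of 7285 genes, and Prdm1 was higher (0.63, 0.26 to 1.00), against 5.81% (12.9% of genes in either direction). With so few members, these counts cannot be told apart from the shares over all genes. Tox was higher by less than the fold (0.47). Per UMI sequenced, Prdm1 was denser in cells with a UMI of Foxp3, the regulatory T cell factor: 43.1 and 75.5 CPM there, against 17.2 and 19.1 CPM in Foxp3-negative cells. Foxp3-positive cells held 55 of its 110 UMIs at day 13 and 95 of 143 at day 19. The Prdm1 ratio was 0.39 in cells with no UMI of C1qa, Lyz2 or Csf1r and 0.56 without cycling cells, both under the fold. It was also under the fold without contig subset 3 (0.57) or 4 (0.53) of day 13 or subset 4 of day 19 (0.58), and with classes from at least 2 UMIs (0.32). Macrophage genes summed to 387 CPM at day 13 and 251 CPM at day 19 in these cells, and 507 and 254 CPM in the Foxp3-positive ones. B cell genes (Cd79a, Cd79b and Ms4a1) summed to 60.8 and 17.0 CPM, and dendritic cell genes (Flt3, Xcr1, Cd209a and Ccr7) to 654 and 497 CPM, or 65.9 and 37.7 CPM without Ccr7. The part of these sums in the CD4 results was not tested.

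Among the 10 members, Eomes had the largest ratio between CD8 and CD4 cells. A call within a day needed at least 1.5-fold in the same direction on both days. Eomes, Id3 and Satb1 were higher in CD8 cells, 3 of 10 members against 4.41% of 9021 genes, and Prdm1 was lower, 1 of 10 against 8.01% (12.4% of genes in either direction). Eomes had log2 ratios of 3.94 (3.21 to 4.78) and 2.93 (2.26 to 3.70). Satb1 had ratios of 1.05 and 0.86, Id3 of 0.78 and 1.13, and Prdm1 of -0.72 and -1.71. Each of these 4 differences had the same direction in 8 of 8 contig subsets. Bach2 and Tox were within 0.07 of equal on both days. With a minimum of 8000 UMIs only Eomes kept its call among these 4 and the ratios of Id3 (0.22), Prdm1 (-0.21) and Satb1 (0.57) fell short of the fold on 1 of the days. With classes from at least 2 UMIs the Id3 ratio was 0.57 at day 13, also short of the fold.

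Pdcd1 divided the members in CD8 cells. Tcf7, Lef1, Satb1, Id3 and Bach2 were lower in Pdcd1-positive cells, 5 of 10 members against 2.46% of 8500 genes, and Id2, Tox and Prdm1 were higher, 3 of 10 against 5% (7.46% of genes in either direction). Satb1 stood at 51.2 CPM in Pdcd1-positive and 183 CPM in Pdcd1-negative cells at day 13, and at 44.0 and 189 CPM at day 19 (log2 ratios -1.84 and -2.10). Lef1 had ratios of -1.38 and -2.48, Tcf7 of -1.22 and -1.94, Id3 of -1.59 and -1.98, and Bach2 of -1.12 and -1.84. Each of these 5 was lower in 8 of 8 contig subsets. On the other side, Tox stood at 87.1 against 36.1 CPM at day 13 and 105 against 43.6 CPM at day 19 (ratios 1.27 and 1.26). Prdm1 had ratios of 1.02 and 1.25, and Id2 of 0.77 and 0.92. The T-box genes did not pass the fold on both days: Tbx21 had ratios of 0.34 and 0.72, and Eomes of -0.47 and -1.62. The dendritic cell genes summed to 222 and 99.0 CPM in Pdcd1-positive and 456 and 372 CPM in Pdcd1-negative cells, and without Ccr7 to 11.3 and 4.27 CPM against 8.98 and 5.29 CPM. NK cell genes summed to 45.4 and 167 CPM in Pdcd1-positive and 67.1 and 105 CPM in Pdcd1-negative cells. B cell genes summed to 10.0 and 14.8 against 20.1 and 14.0 CPM. The part of these sums was not tested. A fold of 2 aside, 6 of the 8 calls held in each of 18 alternatives. Id2 lost its call with a minimum of 8000 UMIs (0.55 at day 13), and Prdm1 had under 100 UMIs without contig subset 2 of day 19.

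Levels changed in steps with the number of Pdcd1 UMIs. At day 13, Tcf7 went from 290 CPM at 0 Pdcd1 UMIs to 178 at 1, 106 at 2 and 78.7 at 3 or more, and at day 19 from 216 to 104, 38.0 and 33.8. Tox went from 36.1 to 74.8, 84.7 and 102 CPM at day 13, and from 43.6 to 81.7, 107 and 118 at day 19. Id3 went from 66.9 to 8.11 CPM at day 13 and from 70.7 to 7.39 at day 19 between 0 and 3 or more Pdcd1 UMIs.

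Among Pdcd1-positive CD8 cells, those with a Havcr2 UMI (149 and 204 cells) were compared with those without (753 and 416). Bach2 had too few UMIs to be tested. Of the 9 members tested, Tcf7, Lef1, Satb1 and Id3 were lower, against 1.46% of 6718 genes, and Prdm1 was higher, against 0.491% (1.95% of genes in either direction). Without contig subset 1 of day 19 the count was 3, and without subset 2 it was 2. Tcf7 had log2 ratios of -2.65 (-3.10 to -2.24) and -3.82 (-4.67 to -3.08), and was detected in 9.40% and 1.96% of the double-positive cells, against 1.68% and 1.06% of the macrophage-rich barcodes. Lef1 had ratios of -1.65 and -1.57, and Satb1 of -0.98 and -0.94. Tox was nearly the same on either side of Havcr2 (97.7 against 84.3 CPM and 112 against 101 CPM, ratios 0.21 and 0.15), although it differed by Pdcd1. Id2 had ratios of 0.35 and 0.54. Macrophage genes summed to 93.2 and 125 CPM in double-positive cells and 105 and 95.1 CPM in those without Havcr2, NK cell genes to 66.8 and 192 against 39.8 and 154 CPM, and dendritic cell genes to 200.3 and 64.1 against 227 and 117 CPM. Ncr1 had no UMI in the double-positive cells on either day. The part of these sums was not tested.

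The Id3 and Prdm1 calls of this comparison rest on few molecules. Id3 in double-positive cells was 1 UMI (0.498 CPM) at day 13 and 30 UMIs (11.6 CPM) at day 19, of which 46.7% lay in 1 cell. Its ratios were -5.80 (-11.11 to -3.31) and -0.86 (-1.50 to -0.27), and without contig subset 1 of day 19 the latter was -0.58. Prdm1 had ratios of 0.78 and 0.62. Its day-19 ratio was 0.45 without contig subset 1, 0.54 without contig subset 2, 0.46 in cells with no UMI of C1qa, Lyz2 or Csf1r and 0.58 without cells with more than 1 TRB chain. With a minimum of 8000 UMIs it was short of the fold on both days (0.35 and 0.44). Without cycling cells the day-19 ratio of Id3 was -0.50, and Prdm1 had under 100 UMIs. Prdm1 also had under 100 UMIs without contig subset 3 of day 19, and so did Id3 and Lef1 without subset 2.

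**Figure D2:**
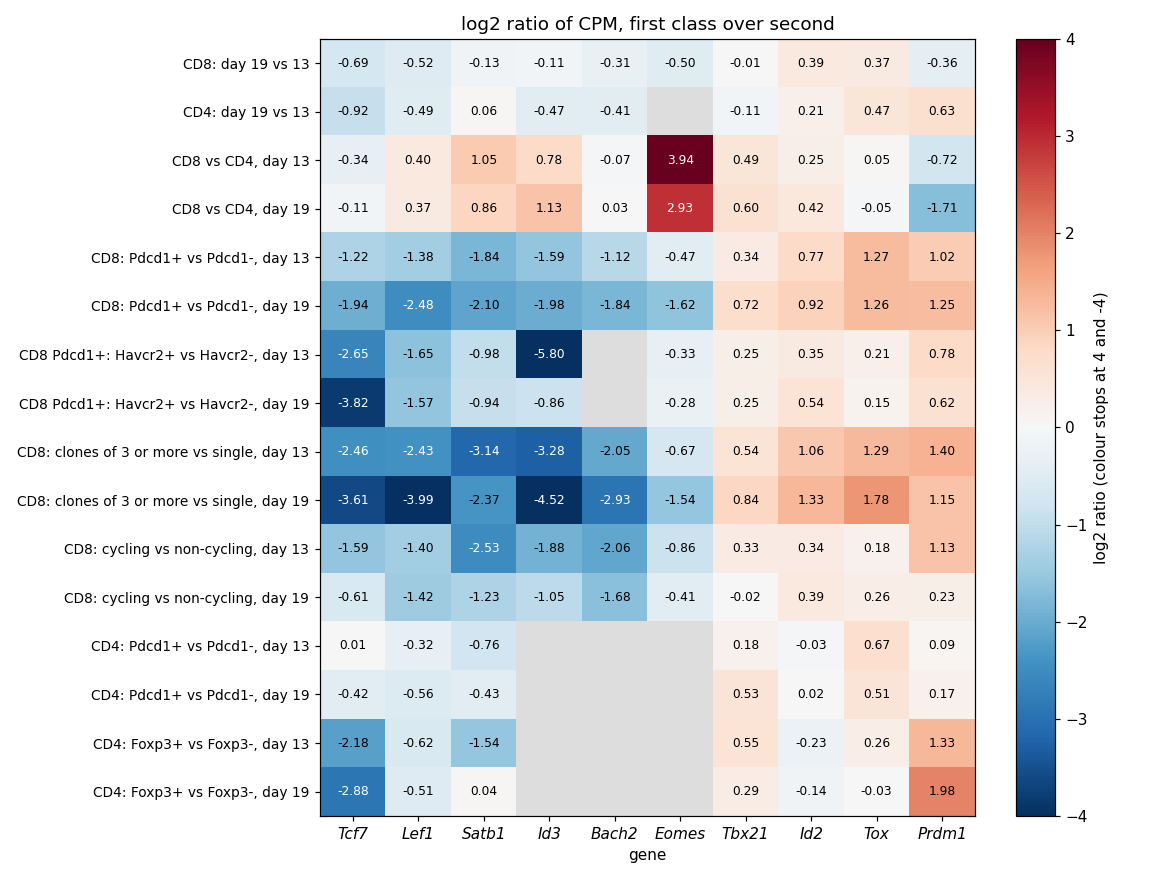
log2 ratio of CPM between the 2 classes named at the left (colour, with the value in each cell) for the 10 genes named at the bottom; grey marks genes with under 100 UMIs in the sums compared. Tcf7, Lef1, Satb1, Id3 and Bach2 are below 0 and Tox, Id2 and Prdm1 above 0 in the Pdcd1 and clone size rows of CD8 cells, and the Eomes value of CD8 against CD4 at day 13 is 3.94.

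The exhausted or effector genes tested, and part of the naive or stem-like genes, moved with the Pdcd1 split. In Pdcd1-positive CD8 cells, 11 of 11 exhausted or effector genes tested were past the fold and higher, against 5% of all genes tested. Lag3 had ratios of 2.00 and 2.10 and Entpd1 of 1.90 and 2.27. Of 7 naive or stem-like genes tested, 4 were lower, against 2.46% of all genes tested, with the homing receptor Ccr7 at -1.09 and -1.95. Of 36 other regulators tested, 5 were higher (Runx2, Irf8, Ikzf3, Bhlhe40 and Hif1a) and 4 lower (Klf2, Klf3, Foxp1 and Tcf12). Klf2, which maintains the homing gene S1pr1, had ratios of -1.96 and -2.81. Among Pdcd1-positive cells the Havcr2 split gave 6 of 11 exhausted or effector genes higher, and 3 of 6 naive or stem-like genes tested lower, Slamf6 and Xcl1 among them. Over all genes tested by Havcr2, 0.491% were higher and 1.46% lower.

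Clonal expansion divided 9 of the 10 members. A clonotype here is identical CDR3 nucleotides of 1 TRA and 1 TRB chain within a contig subset. Cells without exactly 1 of each had no clone size, which left 2659 and 1461 of the kept cells. Of clonotypes with at least 2 cells, 3.33% to 7.5% per subset recurred in another subset at day 13. At day 19 it was 20.9% to 50%. A cell counted as single can thus share its clonotype with cells of another subset. CD8 cells of clonotypes with at least 3 cells (445 and 251) were compared with those seen in 1 cell (1381 and 647). Tcf7, Lef1, Satb1, Id3, Bach2 and Eomes were lower in expanded cells, 6 of 10 members against 3.76% of 7358 genes, and Id2, Tox and Prdm1 were higher, 3 of 10 against 5.72% (9.49% of genes in either direction). Tcf7 stood at 51.8 against 285 CPM at day 13 and at 17.8 against 219 CPM at day 19 (ratios -2.46 and -3.61). Id3 had ratios of -3.28 and -4.52, Lef1 of -2.43 and -3.99, Satb1 of -3.14 and -2.37, and Bach2 of -2.05 and -2.93. At day 19 the expanded cells held few UMIs of Id3 (7 in Pdcd1-positive and 3 in Pdcd1-negative cells), Lef1 (11 and 9) and Bach2 (13 and 3). Tox stood at 98.6 against 40.2 CPM and at 128 against 37.2 CPM (1.29 and 1.78), and Id2 had ratios of 1.06 and 1.33. Eomes, at -0.67 and -1.54, lost its call without contig subset 3 of day 13 (-0.42) and in cells with no UMI of C1qa, Lyz2 or Csf1r (-0.58). A fold of 2 aside, the calls of 7 others held in each of 20 alternatives. Prdm1 had 100 UMIs in all at day 19, the minimum for a call. It fell below it in 9 of the 20, among them the removal of any 1 contig subset of day 19, while its ratio stayed past the fold in all 20.

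The difference by clone size was past the fold on both days on either side of Pdcd1 for Tcf7, Lef1, Satb1, Id3, Bach2, Id2 and Tox, of which Lef1 and Bach2 had under 100 UMIs in Pdcd1-positive cells at day 19. For Eomes and Prdm1 it was past the fold on both days within Pdcd1-negative cells alone (Eomes -0.91 and -1.72, Prdm1 1.41 and 1.78, the latter with under 100 UMIs on each day). There Eomes had 9 UMIs in the 47 expanded cells of day 19. Within Pdcd1-positive cells, Eomes had ratios of -0.20 (-0.55 to 0.16) and -0.42 (-1.10 to 0.28), and Prdm1 of 0.87 and 0.02 (-0.71 to 0.76), both with under 100 UMIs at day 19. Within Pdcd1-positive cells the Tcf7 ratio of expanded to single cells was -2.29 (-2.56 to -2.02) and -3.43 (-3.99 to -2.91), and within Pdcd1-negative cells -1.85 and -2.68. Tox had ratios of 0.69 and 1.14 within Pdcd1-positive and of 1.09 and 2.02 within Pdcd1-negative cells. Conversely, among single cells alone the Pdcd1-positive ones had a Tcf7 ratio of -0.73 and -0.73 against Pdcd1-negative ones, and a Satb1 ratio of -1.53 and -1.45. Expanded cells were also more often cycling (21.6% and 26.7%, against 7.53% and 15.0% of single cells). Without cycling cells the calls of Tcf7, Lef1, Satb1, Id3, Bach2, Id2 and Tox held, and Prdm1 had under 100 UMIs. The part of cycling in the size of the ratios was not tested. The dendritic cell genes summed to 138 and 90.5 CPM in expanded cells, against 422 and 361 CPM in single cells. Nearly all of this was Ccr7, which is also on the list of naive T cell genes: without it the sums were 12.4 and 2.31 CPM, against 9.89 and 8.06 CPM. NK cell genes summed to 43.8 and 199 CPM in expanded and 68.9 and 97.5 CPM in single cells, and their part was not tested. Ncr1 had no UMI in expanded cells on either day, so the sums there are those of Klrb1c and Klre1. At day 13, 60.7% of the expanded cells came from 1 contig subset.

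**Figure D3:**
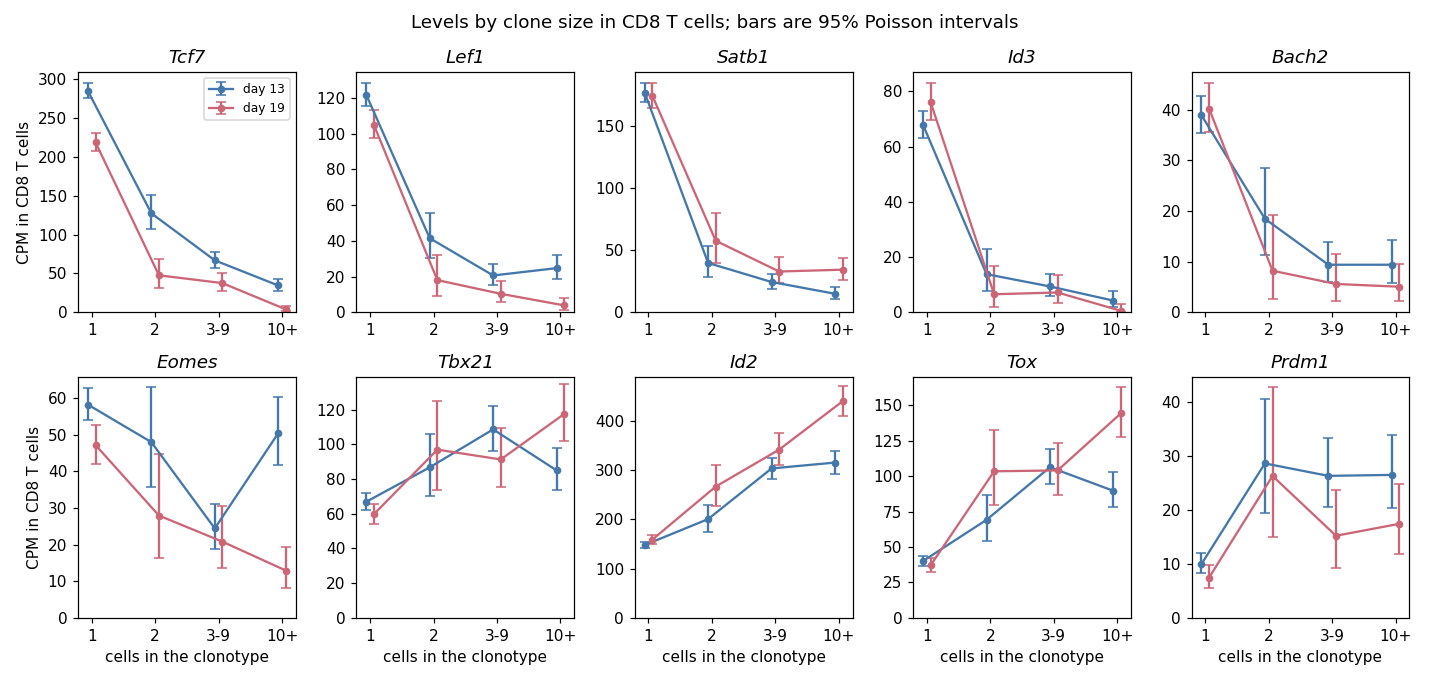
CPM of each gene in CD8 cells (vertical axis) by the number of cells in the clonotype (horizontal axis) and day (colour), with 95% Poisson intervals. At 10 or more cells, Tcf7 is at 34.6 CPM at day 13 and 3.94 CPM at day 19, and Eomes at 50.4 and 12.9 CPM, while Tox and Id2 are above their level in clonotypes of 1 cell.

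The largest clonotypes were also looked at on their own. With at least 10 CD8 cells there were 10 at day 13 (195 cells) and 5 at day 19 (146 cells). Tcf7 was detected in 0 to 45% of the cells of a clonotype at day 13 (median 8.71%) and in 0 to 10.0% at day 19 (median 0), with no positive cell in 3 of 10 and 3 of 5. Tox was detected in every large clonotype, in 14.8% to 59.1% of cells at day 13 and in 19.3% to 52.2% at day 19. The clonotype with the highest Tcf7 share at day 13 (45% of 20 cells) also had Tox in 55.0%. The largest clonotype at day 19 had 57 cells, 0 with Tcf7 and 0 with Eomes. In Eomes the clonotypes of 10 or more cells summed to 50.4 CPM at day 13 and 12.9 CPM at day 19. Satb1 went the other way, at 15.0 and 34.3 CPM.

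Cycling CD8 cells, with a thinned sum of at least 3 UMIs over 10 mitosis genes such as Mki67 and Top2a, made up 10.6% of CD8 cells at day 13 and 19.2% at day 19. They had a median of 17182 and 17305 UMIs, against 6859 and 7890 in non-cycling cells. Tcf7, Lef1, Satb1, Id3 and Bach2 were lower in cycling cells, 5 of 10 members against 6.4% of 8156 genes, and 0 were higher, against 13.2% (19.6% of genes in either direction). Bach2 had ratios of -2.06 and -1.68, Satb1 of -2.53 and -1.23, Lef1 of -1.40 and -1.42, and Id3 of -1.88 and -1.05. Tcf7 had ratios of -1.59 (-1.73 to -1.46) and -0.61 (-0.75 to -0.46). In cells of at least 8000 UMIs the day-19 Tcf7 ratio was -0.16. Without contig subset 3 or 4 of day 19 it was -0.51 and -0.44. The mean of contig subsets gave -0.51. Id3 lost its call with a minimum of 8000 UMIs (-0.56 at day 19). Within Pdcd1-positive cells the Tcf7 ratio was -1.58 at day 13 and 0.06 (-0.24 to 0.37) at day 19. There Lef1 (-0.74), Satb1 (-1.54), Id3 (-1.5) and Bach2 (-1.69) were past the fold at day 13. The day-19 ratios of Lef1 (-0.09, -0.65 to 0.46), Satb1 (-0.17, -0.53 to 0.18) and Id3 (-0.45, -1.01 to 0.10) were also short of the fold with intervals that included 0, and Bach2 (-0.84) had under 100 UMIs. Within Pdcd1-negative cells, Lef1 (-1.25 and -1.42), Satb1 (-2.52 and -1.27), Bach2 (-1.93 and -1.67) and Id3 (-1.54 and -0.98) were past the fold on both days, and Tcf7 had -1.13 and -0.54. Tox had ratios of 0.18 and 0.26 over all CD8 cells, of -0.43 (-0.66 to -0.20) and -0.16 (-0.38 to 0.07) within Pdcd1-positive cells, and of 0.32 (-0.03 to 0.66) and 0.72 (0.39 to 1.05) within Pdcd1-negative cells. The difference between the Pdcd1 classes was not tested. Macrophage genes summed to 56.4 and 51.2 CPM in cycling and 129 and 118 CPM in non-cycling cells, and dendritic cell genes to 79.1 and 103 CPM against 463 and 325 CPM (3.72 and 0.993 against 12.1 and 6.36 CPM without Ccr7). The part of these sums was not tested.

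Co-detection was counted in CD8 cells after thinning, as the cells with both genes over the number given by the product of the shares. For Tcf7 and Lef1 the ratio was 1.32 at day 13 and 1.69 at day 19, and for Tcf7 and Tox it was 0.752 and 0.618. All 45 pairs had at least 10 cells by the product, and 43 lay on the same side of 1 on both days. None reached 1.5 on both days. The 6 pairs at or below 1/1.5 on both days were Prdm1 with Tcf7 (0.549 and 0.356), Lef1, Satb1, Id3 and Bach2, and Bach2 with Tox. Without contig subset 2 of day 13, or without subset 2 of day 19, 3 pairs were. Cells with both Tcf7 and Tox made up 8.35% (7.33 to 9.47) of CD8 cells at day 13 and 5.85% (4.69 to 7.19) at day 19. Cells with Tox and no Tcf7 UMI made up 11.4% and 18.4%. Among cells positive for Pdcd1 and Havcr2, Tcf7 and Tox were both seen in 6 of 149 and 2 of 204 cells, and Tox without Tcf7 in 40 and 78. Within Pdcd1-positive cells alone, 25 pairs had enough cells and only Id2 with Id3 (0.482 and 0.469) and Id3 with Tox (0.438 and 0.609) were at or below the fold.

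**Figure D4:**
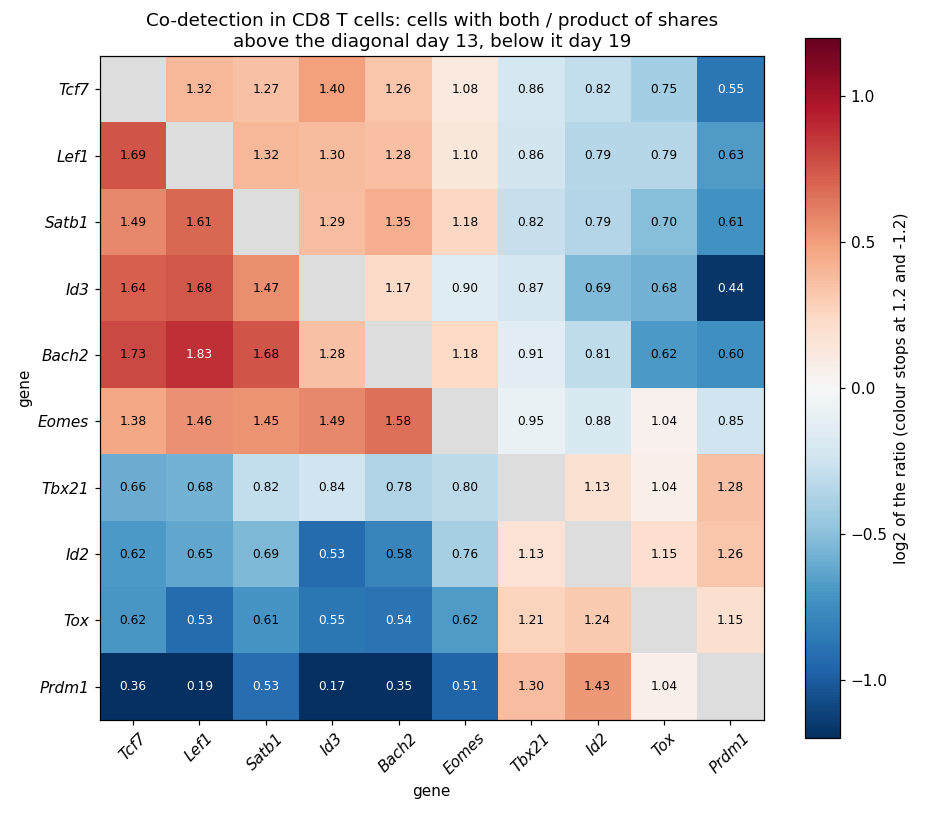
Ratio of CD8 cells with both genes to the product of the shares, day 13 above the diagonal and day 19 below it; colour is its log2. Pairs among Tcf7, Lef1, Satb1, Id3 and Bach2 lie above 1 and pairs of these with Prdm1, Tox or Id2 below 1 on both days.

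In CD4 cells 0 of 7 members tested passed the fold by Pdcd1 on both days, a count near the background of 0.826% of 4840 genes higher and 1.36% lower (2.19% in either direction). Without contig subset 2 of day 19, 1 of 4 members tested was past the fold. Tcf7 had ratios of 0.01 (-0.16 to 0.18) and -0.42 (-0.67 to -0.18) and Tox of 0.67 and 0.51. Tox was higher and Lef1 and Satb1 lower in Pdcd1-positive CD4 cells in 7 of 8 contig subsets each. Among Foxp3-negative CD4 cells the ratios were 0.49 and 1.01 for Tox, -0.17 and -0.66 for Tcf7, -0.46 and -0.65 for Lef1, -1.04 and -0.40 for Satb1, and -0.64 and -0.79 for Id3. Prdm1 had ratios of 0.35 and 0.83. Bach2 (-0.15 and 1.06) and Id2 (-0.07 and 0.00) did not have the signs seen in CD8 cells on both days. Prdm1 on both days, and Id3 and Bach2 at day 19, had under 100 UMIs. Of the 8 members called in CD8 cells, the remaining 6 had those signs, but none was past the fold on both days with at least 100 UMIs. Macrophage genes summed to 195 and 198 CPM in Pdcd1-positive and 495 and 309 CPM in Pdcd1-negative CD4 cells. Dendritic cell genes without Ccr7 summed to 28.1 and 21.3 against 87.1 and 55.8 CPM. The part of these sums was not tested. Foxp3 also divided CD4 cells: 127 and 111 cells had a Foxp3 UMI. Tcf7 was lower in them, 1 of 7 members tested against 2.15% of genes, at 80.0 against 364 CPM at day 13 and 28.6 against 211 CPM at day 19 (ratios -2.18 and -2.88). Prdm1, which acts in effector regulatory T cells, was higher, 1 of 7 against 2.27%, and 4.42% of genes passed in either direction (ratios 1.33 and 1.98). Without any 1 subset of day 13, or subset 2 of day 19, Prdm1 had too few UMIs to be tested. Tox did not differ by Foxp3 beyond the fold (0.26 and -0.03). Satb1 had ratios of -1.54 at day 13 and 0.04 at day 19. Foxp3-positive cells also had a sum of macrophage genes of 507 CPM against 340 in Foxp3-negative cells at day 13, and 254 against 249 at day 19. Dendritic cell genes without Ccr7 summed to 104 and 30.2 CPM in Foxp3-positive and 50.6 and 41.5 CPM in Foxp3-negative cells. The part of these sums in the ratios was not tested.

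The antibody tags gave a readout apart from the transcripts that define the classes. CD8 cells of each day were divided at the median of a tag's share of the cell's antibody UMIs. Cells above the median for CD39, the protein of Entpd1 and a marker of exhausted cells, had less Tcf7 (log2 ratios -0.36 and -1.27), Lef1 (-0.22 and -1.03), Satb1 (-0.26 and -0.75), Bach2 (-0.49 and -1.21) and Id3 (-0.36 and -1.48). They had more Tox (0.26 and 0.81), Id2 (0.29 and 0.65) and Prdm1 (0.24 and 0.89), though the day 13 interval of Prdm1 included 0. All 8 ratios were short of the fold at day 13, so none of these members passed it on both days. No share over all genes is given for this split. The ratios of these 8 members were wider at day 19, and whether the days differ in this was not tested. The PD-1 tag gave ratios under the fold for its own transcript (Pdcd1 0.39 and 0.34), and Tcf7 ratios of -0.20 and -0.26. The TIM-3 tag likewise gave Havcr2 ratios of 0.41 and 0.52. For CD127, KLRG1, CX3CR1 and CD69 the Tcf7 ratios lay between -0.16 and 0.19.

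**Figure D5:**
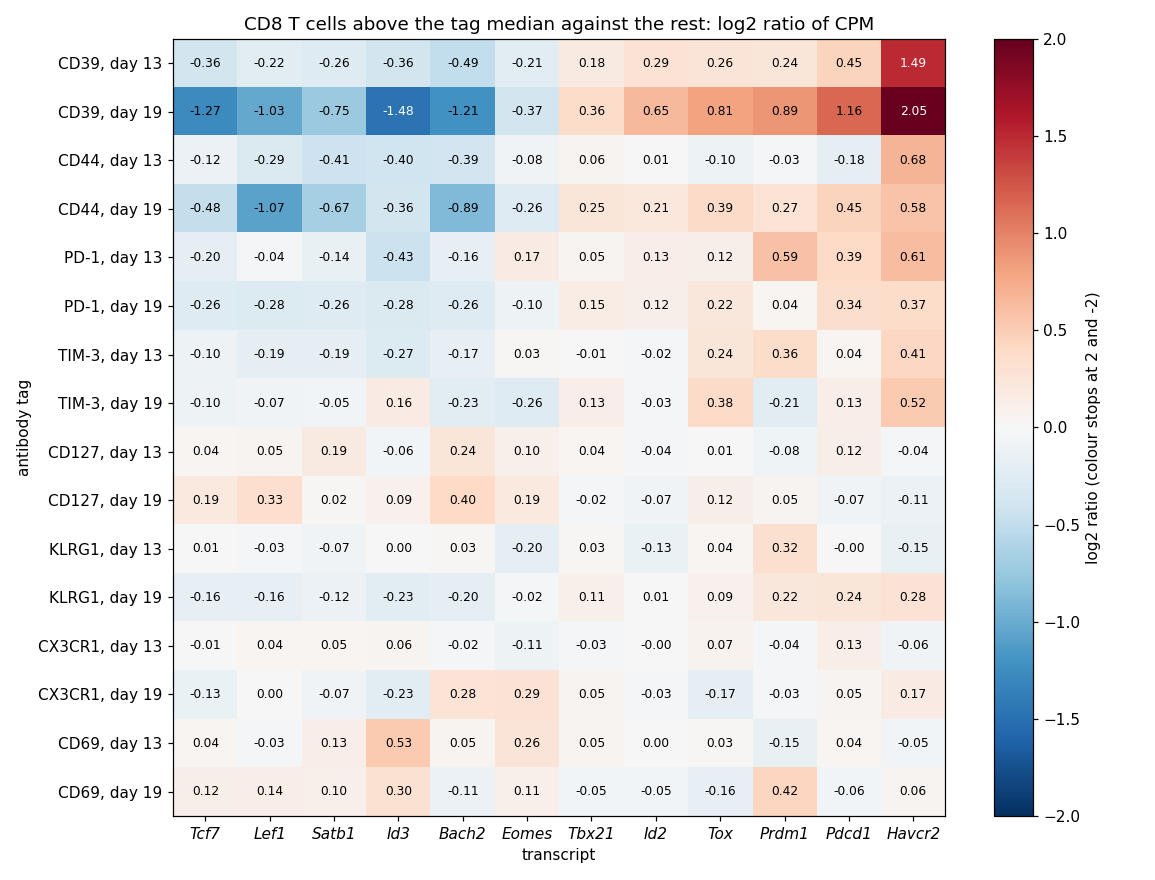
log2 ratio of CPM between CD8 cells above the median of an antibody tag and the other CD8 cells (colour and printed value), for each tag and day (rows) and transcript (columns). The CD39 row of day 19 holds values such as Id3 at -1.48 and Tcf7 at -1.27, while the members lie between -0.49 and 0.29 in its day 13 row and all values of the PD-1 and TIM-3 rows between -0.43 and 0.61.

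Over 39 sums of cells by class, Pdcd1 and Havcr2 class, contig subset and day, the genes with the highest Pearson correlation of log2(CPM + 10) were listed for each member among 7159 genes, of which 2 or 3 are named here. The sums share libraries and depth, and class differences enter every value, so the correlations are descriptions. For Tcf7 they were Klf3 (0.94), Cmah (0.91) and Nsg2 (0.91), and for Lef1 Klf2 and Ssh2 (both 0.91). Bach2 was most like Klf2, Socs3 and Nsg2, Satb1 like Tmem243 and Pde2a, and Id3 like Pde2a, Pdcd4 and Nsg2. Id2 was most like Litaf, Adgrg1 and Gpd2, Tox like Acot7 and Ech1, and Prdm1 like Ctla4 (0.82), Tnfrsf1b and Ttc39c. Eomes was most like Samd3, Ly6c2 and Bend4, and Tbx21 like Fasl (0.72), Smyd3 and Gng2. Between members, Tcf7 and Lef1 had r = 0.85, Tcf7 and Id2 r = -0.89, Tcf7 and Tox r = -0.67, and Tcf7 and Eomes r = 0.04.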

How the data were processed

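Gene expression, antibody tag and TCR libraries of 1 capture per day were used. The deposited matrices hold UMI counts per feature and barcode with no normalization; the submitters' processing notes list Cell Ranger 4.0.0, STAR 2.7.5c, bcl2fastq 2.20, Seurat, R 4.1.2 and mm10, without roles. The deposited contig tables give UMI counts per assembled TCR contig. Coordinates and promoters come from RefSeq's GRCm38.p6 tables, the assembly of mm10. The matrices hold 144565182 and 81224453 gene UMIs. Mitochondrial UMIs were at most 3.37% and 4.83% of a kept cell, and 857 and 1056 barcodes were left out for macrophage UMIs.

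Counts were summed per class and day and divided by the sum's total (CPM). Pdcd1, Havcr2, Foxp3 and cycling classes and all shares used counts thinned to 5000 UMIs per cell; cells with a sum of 1 or 2 cycling UMIs (360 and 194 CD8 cells) were in neither cycling class. Class sums of 0 were set to 3 UMIs to give a bound. The members are named in every comparison, other genes from lists of regulators and state genes by size of ratio. The members and lists were chosen with earlier results of these data known. No doublet caller was run; results without cells with more than 1 TRB chain (326 and 153) were computed instead. In simulated independent Poisson sums for day 19 against day 13 in CD8 cells (10052 genes), the intervals held the true ratio for 95.5% of genes. Of 200 genes changed by 2-fold, 200 had an interval on the true side of 0. The intervals assume such counts, so this checks their computation and not the spread between cells. Python 3.11.15, numpy 2.4.6, scipy 1.17.1 and pandas 2.3.3 were used. Alternatives were the UMI, mitochondrial and macrophage minimums, class rules, doublets, cycling cells, weighting, fold and contig subsets (the cells of 1 contig table). The matrices also list 4 multiplexing tags per day, which were not used here. The sum of dendritic cell genes without Ccr7 was added after its values were seen. Some genes and 1 antibody tag are not reported here.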

Additional observations from a re-analysis of the deposited data

Results flagged for a closer look

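Prdm1 moved in opposite directions between the days in the 2 classes, with a log2 ratio of day 19 to day 13 of -0.36 in CD8 and 0.63 in CD4 cells. Tcf7 had a day ratio of 0.21 in cycling and -0.78 in non-cycling CD8 cells. Satb1 had 1.16 in cycling and -0.14 in non-cycling CD8 cells. Id3 had -1.08 in CD8 cells of clonotypes with at least 3 cells and 0.16 in clonotypes of 1 cell. The Id3 ratio of -1.08 rests on 35 UMIs at day 13 and 10 at day 19, fewer than the 100 asked for in the other comparisons. Each of these results was picked because its 2 groups moved in opposite directions, and the difference between the groups was not tested.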

How the results depend on the processing

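The alternatives gave 2146 log2 ratios of members, of which 1944 moved by less than their counting interval and kept their direction and 201 moved by more; 1 reversed, Satb1 in Pdcd1-positive against Pdcd1-negative CD4 cells at day 13, from -0.76 to 0.44 with a minimum of 8000 UMIs. The counts of members past the fold moved by over 1.5 times as follows. A minimum of 8000 UMIs gave 2 for CD8 against CD4, 3 for cycling, 1 for Foxp3, 0 for day in CD8 and 4 for day in CD4 cells. No UMI of C1qa, Lyz2 or Csf1r gave 1 for Foxp3 and 1 for day in CD4 cells, and classes from at least 2 UMIs gave 1 for Foxp3. Classes from all UMIs, the mean of single cells and the mean of contig subsets each gave 1 for Pdcd1 in CD4 cells. Leaving out cycling cells gave 3 for Havcr2, 2 for Pdcd1 in CD4 cells, 1 for Foxp3 and 1 for day in CD4 cells. A fold of 2 gave 1 for CD8 against CD4, 2 for Havcr2, 0 for day in CD8 and 0 for day in CD4 cells. Co-detected pairs numbered 1 at a fold of 2, 3 with all UMIs and 2 in Pdcd1-positive cells. The Foxp3 count fell where Prdm1 had under 100 UMIs and was not tested; its ratios stayed past the fold in 18 of 18 alternatives. Leaving out each contig subset in turn gave 4 to 4 members for CD8 against CD4, 7 to 9 for Pdcd1 in CD8, 2 to 5 for Havcr2, 8 to 10 for expanded, 4 to 6 for cycling, 0 to 1 for Pdcd1 in CD4, 1 to 2 for Foxp3, 1 to 2 for day in CD8 and 1 to 3 for day in CD4 cells, and 3 to 7 pairs. The subsets whose removal moved a count by over 1.5 times were each of day 13 and subsets 1, 2 and 4 of day 19. An alternative chosen after seeing the data left out the largest clonotype of each contig subset; it ended the call of Tcf7 in cycling cells (-0.56 at day 19). The cause of these moves was not tested. No paired analysis was done: each day has 1 capture, the contig subsets carry no replicate labels, and the multiplexing tags were not used. Within a day, the number of contig subsets with the same direction is given for some comparisons, with no test. Counting error alone is covered, and genes under 100 UMIs, such as Bach2 and Prdm1 in small classes, could not be compared.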
